A study of Danio rerio with 10 samples.

Results

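The heat shock proteins, chaperonins and co-chaperones of the zebrafish embryo were examined in RNA-seq of whole embryos at the 17 to 18 somite stage. They were the genes whose symbols begin with the usual stems of these families (hsp, hspa, hspb, hspd and hspe, dnaj, cct, tcp1, bag, stip1, ahsa, hsf1 and hsf2, ptges3, pfdn and cdc37). The stems took 96 of the 14650 genes in the count table. They fell into 10 Hsp90 and Hsp90 co-chaperone genes, 11 Hsp70 family genes, 9 small heat shock proteins, 2 mitochondrial chaperonin genes, 41 J-domain proteins, 7 subunits of the cytosolic chaperonin, 4 prefoldin subunits, 6 Bag proteins and 2 heat shock factors. Another 4 genes match a stem but were kept outside these role groups (hspbp1, hspbap1, tcp11l1 and tcp11l2). The symbols matched cct2, pfdn4 and cdc37 nowhere in the table, and those genes are not analysed here. Embryos came from a mutant line of tpcn2 (TPC2), the gene of a two-pore cation channel of lysosomes, and from wild-type ABTU fish, with 5 biological replicates each, all kept at 28 °C. The labels name neither the allele nor the background strain of the mutant line, and they do not say whether replicates were separate clutches, so genotype, strain and clutch cannot be told apart. The p-values then measure the spread between these samples, which may be partly technical.

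Chaperones bind proteins that are not yet, or no longer, folded. Hsp70 proteins grip short hydrophobic stretches in an ATP cycle that J-domain proteins start and nucleotide exchange factors such as Bag proteins and Hsp110 end, and the adaptor Stip1 passes some clients on to Hsp90. Hsp90 works as a dimer whose ATPase is slowed by p23 (ptges3) and sped up by Aha1 (ahsa1). Prefoldin hands new actin and tubulin to the ring-shaped cytosolic chaperonin, small heat shock proteins hold unfolded proteins without ATP, and the endoplasmic reticulum and the mitochondria have Hsp70 and Hsp90 or chaperonin genes of their own. Heat shock factors switch on the stress-inducible members, while the unfolded protein response switches on those of the endoplasmic reticulum. In zebrafish, Hsp90a of the hsp90aa1.1 gene is known for its part in folding muscle myosin during somite development.

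Library totals lay between 17890367 and 22498643 counts. tpcn2 stood at 6.72 to 10.3 CPM (read counts relative to library size, scaled by the TMM method) in the mutant libraries, against 47.1 to 81.1 CPM in the wild-type libraries. Of the markers of muscle, neural tissue, epidermis, notochord and blood listed for this work, 38 were in the count table, and all 38 had reads in every library. The listed neb, gap43 and ntd5 have no entry there. Muscle markers were lower in the mutant for 6 of 10 tested and neural markers for 7 of 9, where 21.6% of all tested genes were lower. Of the epidermal markers 3 were higher and 1 lower of 8, and of the erythroid markers 2 were higher and 2 lower of 5. The summed muscle level was 2248 to 2761 CPM in the mutant, against 2954 to 3562 CPM in wild type, and the summed neural level was 1151 to 1289 CPM in the mutant, against 1461 to 1672 CPM in wild type. In RNA of whole embryos, fewer cells of a type and less RNA per cell cannot be told apart.

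One wild-type library, replicate 1, stood apart from the other 4, among chaperones and beyond. On the second principal component of all tested genes (10.1% of the variance) it lay at 33.3, with the other wild-type libraries between -17.0 and -0.71. Among the 91 members that could be tested, 10 were at least 1.5-fold higher in it than the mean of the other 4, against 3.82% of all tested genes, and 4 were at least 1.5-fold lower, against 7.18%. It was the highest wild-type library for 42 of 91 members, against 26.7% of all tested genes. Its tpcn2 level, 47.1 CPM, was the lowest of the wild-type range and far above every mutant library.

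The members that were highest in this library relative to the others were hsp90aa1.2, hsp70.1, hsp70l, hsp90b1 and hspa5. The size of the excess varied among stress-inducible genes. bag3 was also highest there among wild-type libraries, but only 1.12-fold above the mean of the others. hspb1 was at its lowest wild-type level there, though close to the next wild-type library. hsp90aa1.2, an inducible copy of Hsp90a, had 49.6, 30.3, 50.2, 114 and 56.0 CPM in the mutant libraries, against 152, 26.2, 39.3, 19.6 and 28.0 CPM in the wild-type libraries. Wild-type replicate 1 was thus 5.38-fold above the other wild-type libraries, and above every mutant library as well. hsp70.1, a strongly heat-inducible Hsp70, had 15.7, 16.9, 30.2, 46.9 and 18.8 CPM in the mutant libraries, against 57.0, 13.2, 13.5, 8.06 and 13.1 CPM in the wild-type libraries. In replicate 1 it was 4.76-fold above the rest of the wild type, and its near copy hsp70l 3.58-fold, although how reads that match both copies were counted is not given in the sources used here. hspa5, the Hsp70 of the endoplasmic reticulum known as BiP, had 431, 352, 385, 584 and 491 CPM in the mutant libraries, against 885, 325, 348, 397 and 393 CPM in the wild-type libraries. The ratio was 2.42 for hspa5 and 2.62 for hsp90b1, the endoplasmic Hsp90 known as Grp94. dnajb1b, an inducible J-domain partner of Hsp70, was 1.89-fold higher, and smaller excesses were seen for dnajc3a (1.75-fold), hspa12b (1.64-fold), dnajb9a (1.58-fold) and dnaja1 (1.53-fold). The members that were at least 1.5-fold lower in this library were ahsa1a, dnajc27, hspbap1 and dnajc19.

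A second library, mutant replicate 4, was high in part of the same genes. On the second principal component it lay at 2.645, with the other mutant libraries between -4.128 and 2.247, so it did not stand apart there. It was at least 1.5-fold above the other mutant libraries for 3 members, hsp90aa1.2 (2.44-fold), hsp70.1 (2.30-fold) and dnajb1b (1.57-fold), against 2.37% of all tested genes, and at least 1.5-fold below them for ahsa1a alone, against 2.95%. The 3 high members were also high in wild-type replicate 1, a combination found in 0.371% of all tested genes. Mutant replicate 4 was singled out after its values for such genes were seen, and the other mutant libraries were not counted this way. These shares are therefore no separate support. hspa5 was highest in the same mutant library but less than 1.5-fold above the rest. In a list of 16 genes of the endoplasmic reticulum stress response, 5 of them members, wild-type replicate 1 was the highest wild-type library for 13 (26.7% of all tested genes), with a summed level of 3335 CPM where the other 4 had 2360 to 2567 CPM. Mutant replicate 4 was the highest mutant library for 7 of the 16 (20.6% of all tested genes). Its sum was 2815 CPM, where the other 4 had 2381 to 2703 CPM. Both sums include hspa5. It had 885 CPM in wild-type replicate 1, where the other wild-type libraries had 325 to 397. In mutant replicate 4 it had 584 CPM, where the other mutant libraries had 352 to 491. Sums without hspa5 were not compared. The list shares members that already set wild-type replicate 1 apart, so it is no separate support. No label sets wild-type replicate 1 or mutant replicate 4 apart from the rest of its group.

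**Figure D1:**
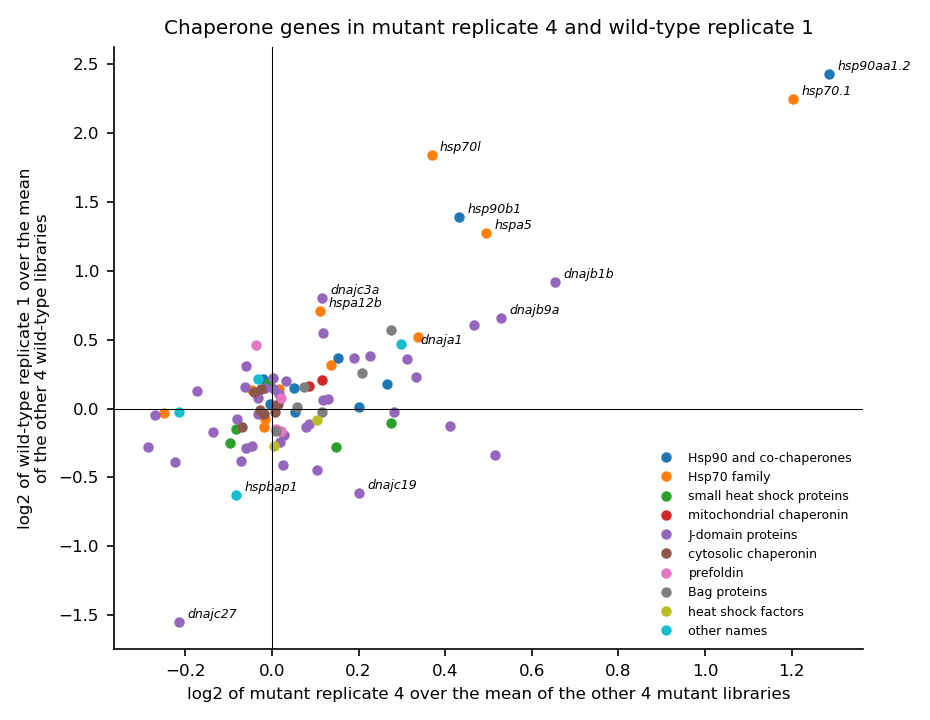
Each point is 1 of the tested members, coloured by role group, by the log2 ratio of mutant replicate 4 to the mean of the other 4 mutant libraries (horizontal) and of wild-type replicate 1 to the mean of the other 4 wild-type libraries (vertical). hsp90aa1.2, hsp70.1 and dnajb1b lie high on both axes, whereas hspa5 and hsp90b1 are high mainly in wild-type replicate 1. ahsa1a, with no read in mutant replicate 4, is not drawn.

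**Figure D2:**
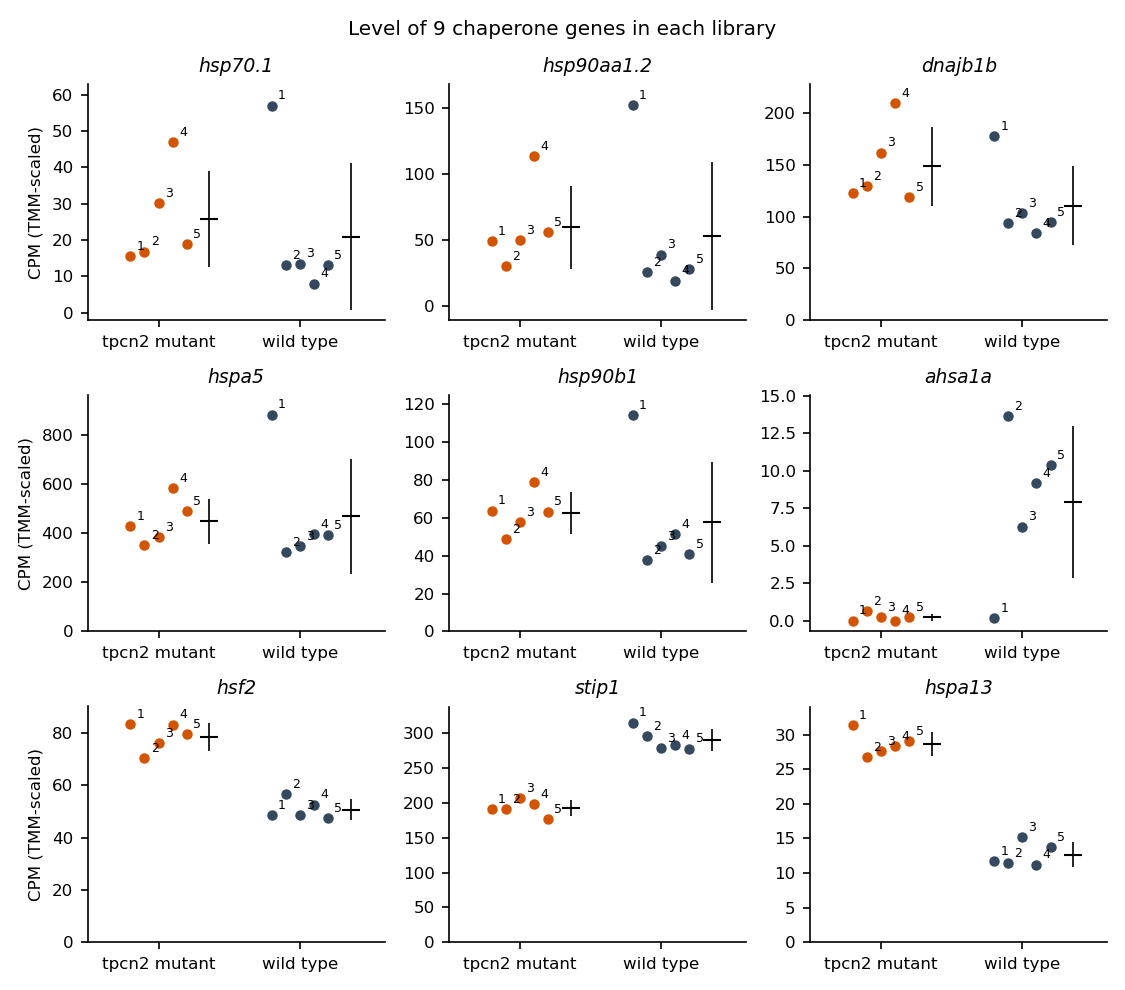
Level in CPM of 9 members in each of the 10 libraries (points, numbered by replicate), with mutant libraries left of wild-type libraries and crosses with bars at the group mean ± SD. Wild-type replicate 1 is far above its group for hsp70.1, hsp90aa1.2, dnajb1b, hspa5 and hsp90b1 and far below it for ahsa1a, whereas hsf2, stip1 and hspa13 separate the genotypes in every library.

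Between genotypes, chaperone genes changed about as often as genes in general. Of 91 members, 15 passed as higher and 23 as lower in the mutant at an adjusted p of 0.05 in edgeR's quasi-likelihood test, together 41.8%, where 42.2% of all 11871 tested genes passed (20.6% higher and 21.6% lower). The median log2 fold change, mutant over wild type, was -0.0059 over the members and -0.0011 over all tested genes. For 10 members every mutant library was above every wild-type library and for 13 every mutant library was below, against 13.7% and 15.0% of all tested genes. The 23 without overlap compare with 28.7% of all tested genes. Only 5 members passed with at least a 2-fold difference (5.68% of all tested genes): bag2, hspa13 and dnajb9a were higher, and ahsa1a and hspa12a lower. The other 5 of the 96 were not tested for lack of reads: dnaja3b had none, and hspb2, hspb3, hspb6 and hspb15 each had between 7 and 20 reads over the mutant libraries and between 2 and 19 over the wild-type libraries.

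With wild-type replicate 1 left out, the count of members higher in the mutant grew to 26, and the count lower stayed at 23, against 21.8% and 22.5% of all tested genes (together 44.3%). Of the 15 higher members 14 were still called, and 12 were gained. Of the 23 lower members 21 were still called, with 2 gained. Leaving out mutant replicate 4 as well gave 23 higher and 21 lower members, against 20.0% and 20.9% of all tested genes (together 40.9%). Leaving out that mutant library alone gave 13 higher and 22 lower, against 18.2% and 19.7% (together 37.9%). The authors' deposited table, which uses all libraries, calls 17 members higher and 23 lower of 95 with an adjusted p, against 19.4% and 20.1% of its genes.

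The members gained were led by those that set the library apart. Leaving out the library in which these genes were highest raises their fold change and narrows the wild-type spread by construction. Their edgeR p-values without it are therefore no separate evidence of a genotype difference. With 5 mutant against 4 wild-type libraries, hsp70.1 had a log2 fold change of 1.104 (adjusted p = 0.00606), against 0.30 ± 0.561 (adjusted p = 0.627) with all 10. hsp90aa1.2 had 1.09 (adjusted p = 0.00763), against 0.18 ± 0.602 (adjusted p = 0.791). Without both high libraries the values were 0.77 for hsp70.1 (adjusted p = 0.00959) and 0.72 for hsp90aa1.2 (adjusted p = 0.0109). Without mutant replicate 4 alone, the values were -0.034 for hsp70.1 and -0.19 for hsp90aa1.2 and neither passed (adjusted p = 0.962 and 0.797), so the direction of both genes depended on which of the high libraries was kept. dnajb1b (log2 fold change 0.66, adjusted p = 0.00135) and hsp90b1 (0.52, adjusted p = 0.00261) also passed without wild-type replicate 1. With all 10 libraries hsp90b1 had 0.12 ± 0.310 (edgeR adjusted p = 0.737). hspa5 came to 0.29 without wild-type replicate 1 and did not pass (adjusted p = 0.0540). With all 10 its sign was the other way, at -0.065 ± 0.292 (edgeR adjusted p = 0.844). The other members gained as higher were dnaja1, dnajb2, dnajc15, hspa9, hspa14, hspd1, tcp1 and hspbp1, with log2 fold changes from 0.12 to 0.42. hspa9 and hspd1 encode the mitochondrial Hsp70 and Hsp60. dnajc27 and dnajc7 were gained as lower. hsp70l, the near copy of hsp70.1, passed neither with all 10 libraries nor in any of these fits.

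**Figure D3:**
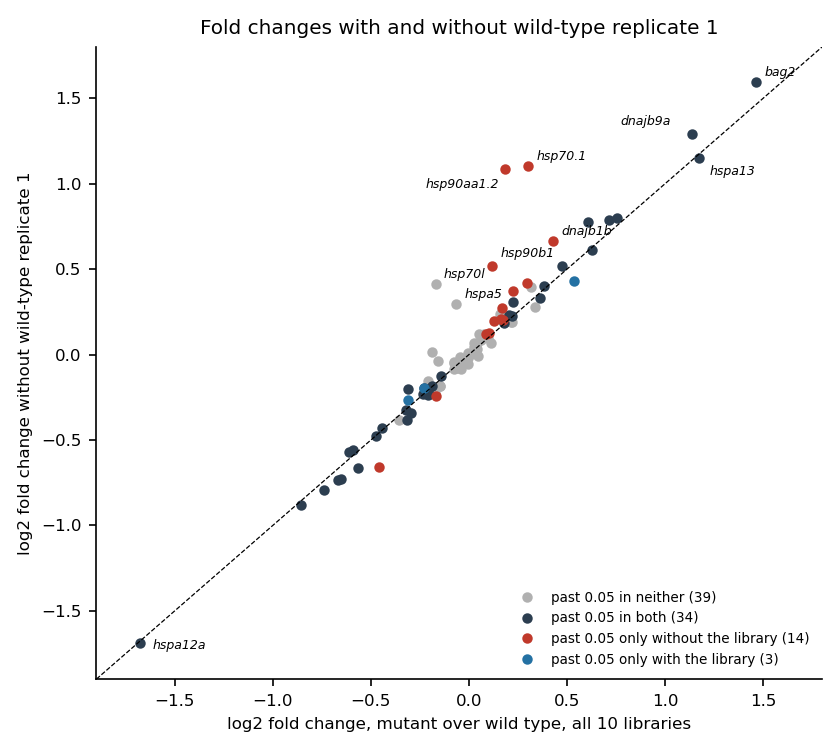
Log2 fold change, mutant over wild type, of each tested member except ahsa1a, with all 10 libraries on the horizontal axis and without wild-type replicate 1 on the vertical axis. The dashed line marks equal values, colours mark in which of the fits the member passed an adjusted p of 0.05, and hsp90aa1.2 and hsp70.1 lie farthest above the line.

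Of the 10 genes of the Hsp90 machine, 4 were higher and 4 lower in the mutant, where 20.6% and 21.6% of all tested genes were. Without wild-type replicate 1, 6 were higher and 3 lower, where 21.8% and 22.5% of all tested genes were. On all libraries limma-voom called 2 lower, a fit whose share of all tested genes is not given here. stip1, which bridges Hsp70 and Hsp90, fell in the mutant and had 191, 191, 206, 198 and 177 CPM in the mutant libraries, against 315, 296, 278, 282 and 278 CPM in the wild-type libraries. No libraries of the genotypes overlapped, wild-type replicate 1 included, and the log2 fold change was -0.59 ± 0.0507 (SE, adjusted p = 1.03e-06). hsp90ab1, the constitutive cytosolic Hsp90 and the gene with the most reads of the group, rose and had 3364, 3265, 2986, 3250.5 and 3423 CPM in the mutant libraries, against 2932, 2798, 2849, 2919 and 2910.5 CPM in the wild-type libraries. Every mutant library was above every wild-type library, although by a small amount, with a log2 fold change of 0.18 ± 0.0362 (SE, adjusted p = 0.00351). cdc37l1, which encodes a relative of the kinase co-chaperone Cdc37, rose with a log2 fold change of 0.47 ± 0.101 (SE, adjusted p = 0.00321). The muscle gene hsp90aa1.1 had 905, 922, 923, 1114 and 953 CPM in the mutant libraries, against 1244, 1291, 989.8, 922 and 1202 CPM in the wild-type libraries. Its genotypes overlapped, and its log2 fold change of -0.23 ± 0.111 (SE, adjusted p = 0.049999) passed the threshold only just. Without wild-type replicate 1 it did not pass (edgeR adjusted p = 0.0923), nor did it in limma-voom (adjusted p = 0.0551). Mutant replicate 4 was its highest mutant library, as it was for 9 of the 10 muscle markers tested and for 20.6% of all tested genes, and the part of muscle content in this difference was not tested.

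Both p23 genes changed, in opposite directions. ptges3a had 187, 166, 174, 199 and 165 CPM in the mutant libraries, against 154, 155, 154, 147 and 154 CPM in the wild-type libraries. ptges3b had 337, 351, 341, 355 and 338 CPM in the mutant libraries, against 471, 506, 497, 440.1 and 474 CPM in the wild-type libraries. The genotypes did not overlap for either gene, and the log2 fold changes were 0.22 ± 0.0535 (SE, adjusted p = 0.00471) for ptges3a and -0.47 ± 0.0383 (SE, adjusted p = 2.08e-06) for ptges3b. The log2 ratio of ptges3a to ptges3b differed by 0.69 ± 0.055 (SE, mutant minus wild type; exact two-sided permutation p = 0.00794, the smallest that 5 against 5 libraries allow, and 0.0291 after adjustment over 11 pairs of related genes).

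The Aha1 genes showed the largest fold difference among all members. ahsa1a had 0, 0.623, 0.255, 0 and 0.223 CPM in the mutant libraries, against 0.160, 13.6, 6.27, 9.18 and 10.4 CPM in the wild-type libraries. In reads these were 0, 13, 5, 0 and 4 in the mutant and 3, 286, 117, 180 and 232 in wild type, so wild-type replicate 1 was at the level of the mutant libraries and the groups overlapped. The log2 fold change was -5.11 ± 1.19 (SE, adjusted p = 2.43e-04), and -5.42 (adjusted p = 3.91e-07) without that library, while limma-voom on all libraries gave an adjusted p of 0.0580. ahsa1b had 176, 172, 183, 199 and 184 CPM in the mutant libraries, against 191, 157, 147, 140.2 and 147 CPM in the wild-type libraries. It rose slightly with a log2 fold change of 0.22 ± 0.0865 (SE, adjusted p = 0.0267), which did not pass without mutant replicate 4 (adjusted p = 0.0692). In wild type, replicate 1 was the lowest library for ahsa1a and the highest for ahsa1b. The log2 ratio of the pair differed by -4.49 ± 1.27 (SE), with an adjusted exact permutation p of 0.0698 over the 11 pairs, and by -5.61 with an adjusted p of 0.0437 without wild-type replicate 1. Leaving out the wild-type library nearest the mutant level widens the differences of ahsa1a and of the pair by construction. The values without it are therefore no separate evidence of a genotype difference.

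In the Hsp70 family 2 of 11 members rose and 1 fell, hspa13, hspa12b and hspa12a, which are divergent relatives of the main cytosolic genes. These 27.3% called compare with 42.2% of all tested genes. The number that rose was 5 without wild-type replicate 1, where 21.8% of all tested genes rose. hspa13, which encodes a microsomal Hsp70-like protein also called Stch, had 31.4, 26.7, 27.6, 28.3 and 29.1 CPM in the mutant libraries, against 11.8, 11.4, 15.2, 11.2 and 13.8 CPM in the wild-type libraries. Every mutant library was well above every wild-type library, with a log2 fold change of 1.17 ± 0.0943 (SE, adjusted p = 5.17e-07). hspa12a, a distant relative of Hsp70, fell and had 12.3, 4.02, 8.05, 7.28 and 10.3 CPM in the mutant libraries, against 26.2, 27.3, 27.5, 23.7 and 28.6 CPM in the wild-type libraries. The genotypes did not overlap, and the log2 fold change was -1.68 ± 0.275 (SE, adjusted p = 1.61e-05). Its relative hspa12b, known in zebrafish from blood vessel endothelium, rose and had 13.8, 10.1, 14.2, 13.3 and 10.9 CPM in the mutant libraries, against 11.9, 7.85, 5.73, 8.67 and 6.88 CPM in the wild-type libraries. Wild-type replicate 1 was within the mutant range for hspa12b, and the log2 fold change was 0.61 ± 0.1998 (SE, adjusted p = 0.0108) with all libraries and 0.77 (adjusted p = 5.05e-04) without it. Leaving out this highest wild-type library raises the fold change of hspa12b by construction. The ratio of hspa12a to hspa12b differed by -2.38 ± 0.304 on the log2 scale (SE; adjusted exact permutation p = 0.0291).

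hspa8, the constitutive Hsc70 and the member with the most reads of all, lay between 9457 and 10071 CPM in the mutant and between 8336 and 10025 CPM in wild type. Its log2 fold change of 0.059 ± 0.0534 did not pass (edgeR adjusted p = 0.365). The nucleotide exchange factors of the Hsp110 kind did not pass either, with log2 fold changes of -0.16 ± 0.127 for hspa4a and -0.061 ± 0.0387 for hspa4b. hspa9 had 608, 569.8, 583, 645 and 586 CPM in the mutant libraries, against 651, 539, 535, 527 and 492 CPM in the wild-type libraries. Wild-type replicate 1 was again the highest of all 10 libraries, and the log2 fold change was 0.13 ± 0.0741 with it and 0.19 (adjusted p = 0.00424) without it. Its omission raises the value by construction.

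Of the 5 small heat shock proteins tested, 3 passed, all as lower in the mutant, where 21.6% of all tested genes were lower. hspb8, a partner of Bag3 in clearing misfolded proteins, had 97.3, 101, 93.2, 97.4 and 99.3 CPM in the mutant libraries, against 165, 136, 138, 166 and 141 CPM in the wild-type libraries. hspb1, the zebrafish Hsp27, had 402, 401, 424, 377 and 386 CPM in the mutant libraries, against 424, 429, 489.9, 546 and 556 CPM in the wild-type libraries. The mutant libraries of both genes lay below every wild-type library, by log2 fold changes of -0.61 ± 0.0668 (SE, adjusted p = 4.79e-06) for hspb8 and -0.30 ± 0.0877 (SE, adjusted p = 0.00505) for hspb1. hspb11, low in reads, fell with a log2 fold change of -0.74 ± 0.224 (SE, adjusted p = 0.0133). hspb7 and hspb9 did not pass, with 0.21 ± 0.209 and -0.36 ± 0.277. The muscle and neural marker sums given above were also lower in the mutant, and their part in these differences was not tested. These 3 were the same without wild-type replicate 1.

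**Figure D4:**
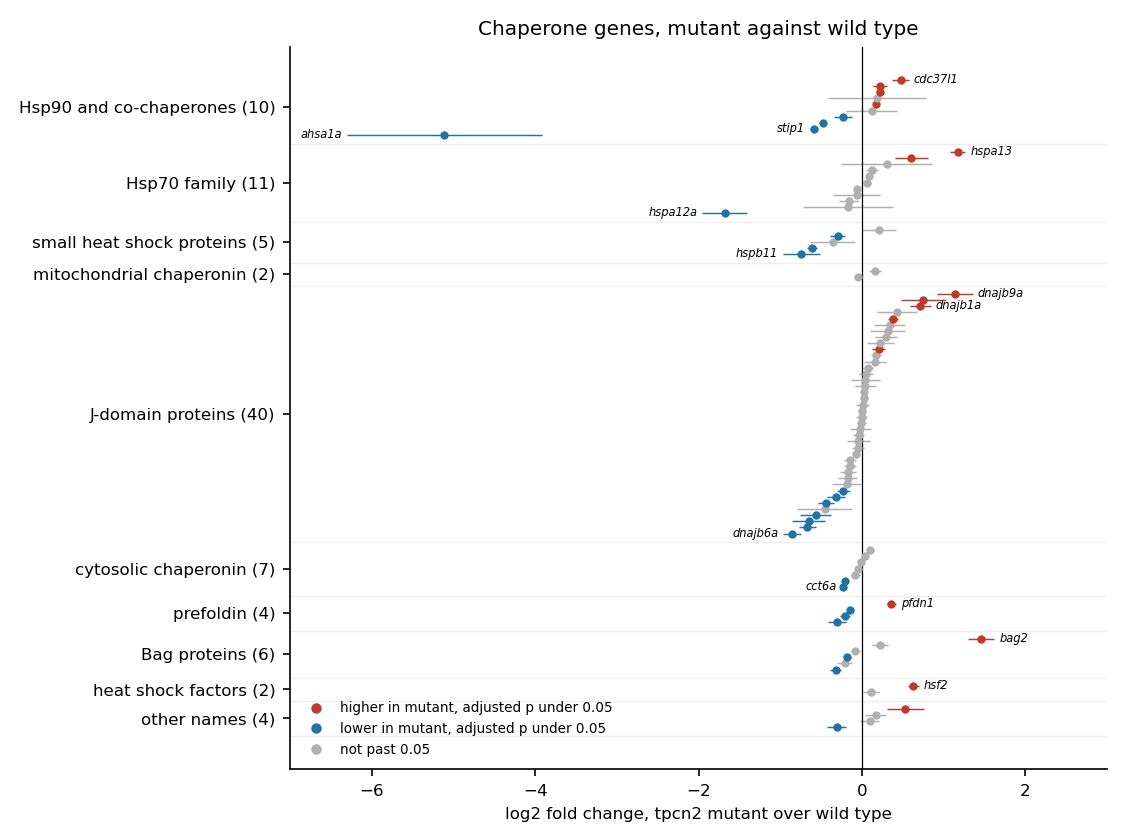
Log2 fold change, mutant over wild type, of the 91 tested members in their role groups, with the number tested in brackets and bars of 1 standard error. Red and blue mark members past an adjusted p of 0.05, and most changes are smaller than 2-fold in either direction.

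J-domain proteins made up the largest group, and 28 of the 40 tested did not pass, while 5 rose and 7 fell (20.6% and 21.6% of all tested genes). The number that rose was 9 without wild-type replicate 1, where 21.8% of all tested genes rose. It was 3 without mutant replicate 5, a fit whose share of all tested genes is not given here. dnajb9a and dnajb9b, both ERdj4 genes of the endoplasmic reticulum, both rose. dnajb9a had 5.89, 8.43, 7.14, 11.01 and 9.04 CPM in the mutant libraries, against 5.37, 3.09, 3.43, 4.23 and 2.86 CPM in the wild-type libraries. All mutant libraries were above all wild-type libraries, by a log2 fold change of 1.14 ± 0.221 (SE, adjusted p = 3.91e-04), with wild-type replicate 1 the highest of its group. dnajb9b had 6.503, 5.27, 8.05, 10.04 and 12.05 CPM in the mutant libraries, against 5.64, 7.09, 4.66, 3.88 and 3.57 CPM in the wild-type libraries. Its genotypes overlapped, with a log2 fold change of 0.75 ± 0.275 (SE, adjusted p = 0.0171) that did not pass without mutant replicate 5 (adjusted p = 0.0537). Other J-domain proteins of that compartment, dnajb11, dnajc3a, dnajc3b and dnajc10, did not pass, with log2 fold changes of 0.052 ± 0.0848, -0.19 ± 0.179, 0.16 ± 0.134 and 0.0077 ± 0.0813. dnajb14, anchored in the endoplasmic reticulum membrane, fell with a log2 fold change of -0.44 ± 0.0975 (SE, adjusted p = 0.00553).

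dnajb1a and dnajb1b, both Hsp40 genes, were higher on average in the mutant. dnajb1a had 18.9, 17.7, 22.5, 23.7 and 17.3 CPM in the mutant libraries, against 14.8, 12.9, 10.8, 10.5 and 12.1 CPM in the wild-type libraries. It did not overlap between genotypes and rose with a log2 fold change of 0.71 ± 0.129 (SE, adjusted p = 2.90e-04). dnajb1b had 123, 129, 162, 209 and 119 CPM in the mutant libraries, against 178, 93.5, 103, 83.8 and 94.5 CPM in the wild-type libraries. Mutant replicate 4 and wild-type replicate 1 were its highest libraries, and its log2 fold change of 0.43 ± 0.245 did not pass with all libraries (adjusted p = 0.0912).

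dnajb6a, whose protein family is known for keeping aggregation-prone proteins soluble, had 14.3, 12.5, 16.4, 15.1 and 14.0 CPM in the mutant libraries, against 24.2, 29.5, 24.1, 22.8 and 30.1 CPM in the wild-type libraries. Every mutant library was lower, with a log2 fold change of -0.85 ± 0.105 (SE, adjusted p = 1.68e-05), while its paralog dnajb6b had -0.047 ± 0.0757 (adjusted p = 0.688). The difference in their log2 ratio was -0.79 ± 0.105 (SE; adjusted exact permutation p = 0.0291). dnajc5ga, of the cysteine string protein family of vesicles, had 64.8, 58.8, 53.9, 52.0 and 65.4 CPM in the mutant libraries, against 75.0, 101, 97.6, 101 and 92.5 CPM in the wild-type libraries. It did not overlap between genotypes, with a log2 fold change of -0.67 ± 0.105 (SE, adjusted p = 4.08e-05). Its paralog dnajc5gb had -0.042 ± 0.147 (adjusted p = 0.837), but the difference in their ratio, -0.63 ± 0.184, missed the threshold over the 11 pairs (adjusted exact permutation p = 0.0655). dnajc8, a J-domain protein of the spliceosome, rose and had 107, 94.1, 93.8, 97.1 and 89.3 CPM in the mutant libraries, against 78.2, 65.5, 75.2, 74.6 and 75.8 CPM in the wild-type libraries. Its log2 fold change was 0.38 ± 0.0618 (SE, adjusted p = 2.07e-04).

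The remaining J-domain calls were smaller or rested on scattered libraries. dnajc25 fell, and so did dnajc19, which encodes a part of the mitochondrial import motor, with log2 fold changes of -0.65 ± 0.205 (adjusted p = 0.00764) and -0.56 ± 0.189 (adjusted p = 0.0144), and both overlapped between genotypes. dnajc17 (-0.32 ± 0.106, a call lost without mutant replicate 4, adjusted p = 0.0590) and dnaja2l (-0.23 ± 0.0796, a call lost without wild-type replicate 1 and mutant replicate 4, adjusted p = 0.0581) were lower, and dnaja3a, the mitochondrial Tid1, was higher (0.20 ± 0.0798, adjusted p = 0.0339). dnaja2, the J-domain gene with the most reads, had 277, 284, 284, 274 and 239 CPM in the mutant libraries, against 243, 302, 296, 274 and 282 CPM in the wild-type libraries. It overlapped between genotypes and did not pass (adjusted p = 0.633).

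Among the 7 cytosolic chaperonin subunits, 2 fell (28.6%, where 21.6% of all tested genes were lower) and the other 5 did not pass. cct6a had 484, 466, 467, 475 and 463 CPM in the mutant libraries, against 565, 549, 558, 547 and 556 CPM in the wild-type libraries. cct5 had 554, 567, 564, 539 and 579 CPM in the mutant libraries, against 599, 639.7, 656, 652 and 684 CPM in the wild-type libraries. Both genes were lower in every mutant library, by log2 fold changes of -0.24 ± 0.0143 (SE, adjusted p = 1.26e-04) for cct6a and -0.20 ± 0.0360 (SE, adjusted p = 0.00171) for cct5. The differences were small and the libraries of each genotype lay close together. The other subunits, cct3, cct4, cct7, cct8 and tcp1, lay between -0.079 and 0.10, and tcp1 passed as higher without wild-type replicate 1 (0.13, adjusted p = 0.0429) and cct4 as lower without wild-type replicate 2 (-0.12, adjusted p = 0.0260).

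All 4 genes with a pfdn symbol passed, 1 as higher and 3 as lower, where 20.6% and 21.6% of all tested genes were. pfdn1 rose and had 98.3, 103, 108, 104 and 105 CPM in the mutant libraries, against 74.3, 88.1, 81.2, 75.0 and 84.9 CPM in the wild-type libraries. The genotypes did not overlap, and the log2 fold change was 0.36 ± 0.0530 (SE, adjusted p = 1.61e-04). pfdn2 fell and had 213, 189, 192, 192 and 193 CPM in the mutant libraries, against 311, 208, 251, 234 and 209.5 CPM in the wild-type libraries. Wild-type replicate 1 was the highest library, the genotypes overlapped, and the log2 fold change was -0.31 ± 0.110 (SE, adjusted p = 0.0140) with all libraries and -0.20 without that one. pfdn6 and pfdn5 also fell, with log2 fold changes of -0.21 ± 0.0564 (SE, adjusted p = 0.0121) and -0.14 ± 0.0363 (SE, adjusted p = 0.0190). pfdn5 did not pass without wild-type replicate 1 and mutant replicate 4 (adjusted p = 0.05002). vbp1, the gene of prefoldin subunit 3, whose name lies outside the stems and which was singled out after its values were seen, was lower as well, with a log2 fold change of -0.18 (adjusted p = 0.00578).

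The mitochondrial chaperonin genes did not pass with all libraries. hspd1, which encodes Hsp60, had 368, 321, 337, 372 and 345 CPM in the mutant libraries, against 349, 280.2, 326, 321 and 279.9 CPM in the wild-type libraries. The log2 fold change was 0.16 ± 0.0745 (adjusted p = 0.0565), and 0.21 (adjusted p = 0.0120) without wild-type replicate 1. That was the highest wild-type library for hspd1, so leaving it out raises the value by construction. The lid of Hsp60, hspe1, had -0.047 ± 0.0525, with an adjusted p of 0.502.

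The Bag protein bag2, which binds Hsp70 and restrains the ubiquitin ligase Chip, had the largest increase among the members that passed. It had 10.4, 11.6, 8.97, 13.2 and 12.5 CPM in the mutant libraries, against 5.58, 3.71, 3.96, 4.08 and 3.31 CPM in the wild-type libraries. The lowest mutant library was well above the highest wild-type library, which was replicate 1, and the log2 fold change was 1.46 ± 0.158 (SE, adjusted p = 5.22e-06). bag1 and bag6 fell by smaller amounts, with log2 fold changes of -0.32 ± 0.0655 (SE, adjusted p = 0.00307) and -0.19 ± 0.0499 (SE, adjusted p = 0.0114), and neither overlapped between genotypes. bag3, the stress-inducible partner of Hspb8, did not pass, with -0.078 ± 0.0597 (adjusted p = 0.399). bag4 and bag5 had -0.21 ± 0.0918 and 0.22 ± 0.0983 and did not pass with all libraries, although bag5 passed as higher without mutant replicate 1 and bag4 as lower without mutant replicate 4 (-0.26, adjusted p = 0.0443).

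Of the heat shock factors, hsf2 rose and hsf1 did not pass. hsf2, known mainly from development, had 83.4, 70.4, 76.0, 83.2 and 79.6 CPM in the mutant libraries, against 48.5, 56.6, 48.6, 52.6 and 47.3 CPM in the wild-type libraries. The genotypes did not overlap, and the log2 fold change was 0.63 ± 0.0661 (SE, adjusted p = 5.40e-06). hsf1, the main factor of the heat shock response, had 18.6, 19.2, 17.3, 18.0 and 16.6 CPM in the mutant libraries, against 14.2, 16.3, 17.9, 19.9 and 14.6 CPM in the wild-type libraries. Its groups overlapped, with a log2 fold change of 0.11 ± 0.0973 (adjusted p = 0.376). Neither factor was highest in wild-type replicate 1 among wild-type libraries, and hsf1 was at its lowest there. Whether the 2 factors differ from each other in response was not tested.

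The 4 genes kept outside the role groups gave weaker calls. hspbap1 was higher (0.53 ± 0.227, adjusted p = 0.0393) and tcp11l1 lower (-0.31 ± 0.113, adjusted p = 0.0315), and neither call held without wild-type replicate 1 (adjusted p = 0.0731 and 0.0597). That library was not the only one: of the 10 fits with a single library left out, 7 lost the call of hspbap1 and 5 that of tcp11l1. hspbp1, whose protein promotes nucleotide exchange on Hsp70, had 0.17 ± 0.131, and tcp11l2 had 0.10 ± 0.117.

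Over the 11 pairs of related genes compared within a library, 3 differed between genotypes in their log2 ratio past an adjusted p of 0.05 by exact permutation: ptges3a and ptges3b, dnajb6a and dnajb6b, and hspa12a and hspa12b. By the edgeR calls, 3 pairs had one gene higher and the other lower, those of ptges3, hspa12 and ahsa1. With 5 against 4 libraries the smallest possible p is 0.0159. A pair at that p passes the adjustment over 11 pairs only if enough other pairs reach it too. The number of pairs past the threshold was then 4 without wild-type replicate 1, 5 without mutant replicate 1 and 0 without any of the others. A count of 0 therefore does not show that a difference was lost. With single libraries left out, the differences ran from 0.66 to 0.72 for ptges3, -0.86 to -0.74 for dnajb6 and -2.52 to -2.21 for hspa12. Among the others, dnajb12a with dnajb12b differed by 0.043 ± 0.125 and hspa4a with hspa4b by -0.090 ± 0.147 (SE). dnajb1a with dnajb1b differed by 0.26 ± 0.150 and dnajb9a with dnajb9b by 0.39 ± 0.288, neither past the threshold (adjusted p = 0.1995 and 0.310 by the exact permutation test). Where such genes are near-identical in sequence, the division of reads between them is uncertain.

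**Figure D5:**
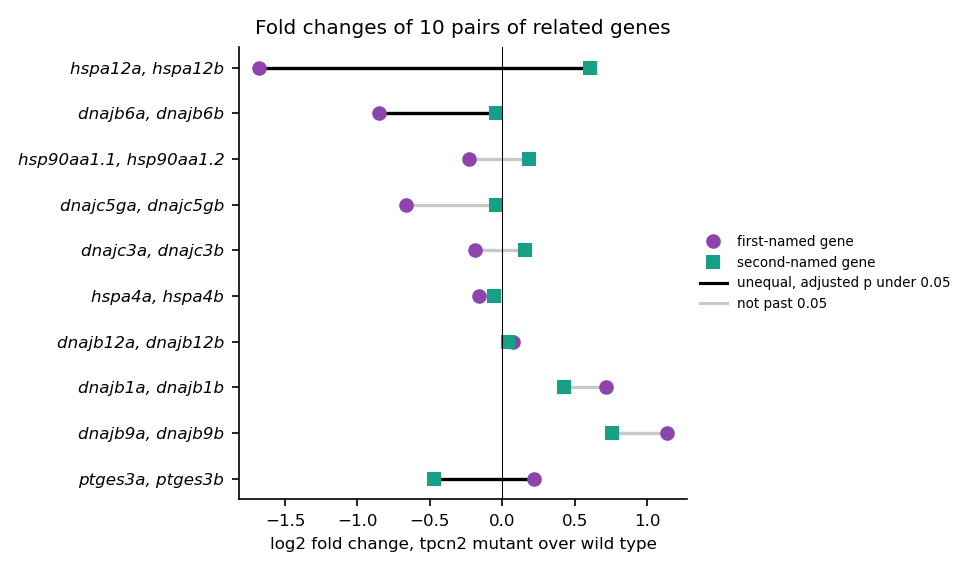
Log2 fold change, mutant over wild type, of both genes of 10 pairs (circle for the first-named gene, square for the second), with a black line where the difference passed an adjusted p of 0.05 by exact permutation. The longest lines are those of hspa12 and dnajb6, and the pair of ptges3 lies on both sides of 0. The ahsa1 pair, with ahsa1a at -5.11, is not drawn.

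Other genes that work with chaperones, from a list of 58 symbols of which 46 were tested, were higher for 6 and lower for 14 (43.5% called), where 20.6% of all tested genes were higher and 21.6% lower. Those lower included co-factors of Hsp90 and Hsp70. txndc9, a thioredoxin-like regulator of the cytosolic chaperonin, had 41.8, 35.8, 37.6, 41.3 and 38.5 CPM in the mutant libraries, against 71.7, 87.5, 75.0, 80.0 and 84.3 CPM in the wild-type libraries. The genotypes did not overlap, with a log2 fold change of -1.03 ± 0.0673 (SE, adjusted p = 6.89e-08). bbs10, a chaperonin-like gene of cilia, had a log2 fold change of -0.91 (adjusted p = 7.32e-05). ppid (cyclophilin 40), st13 (the Hsp70-interacting protein Hip) and chordc1b (an Hsp90 partner) were lower by smaller amounts, at -0.32, -0.29 and -0.31. Higher were tomm70a, the mitochondrial import receptor that Hsp90 and Hsp70 dock on (0.50), serpinh1a, a collagen chaperone (0.55), uxt, a prefoldin-like protein (0.51), cryabb, a small heat shock protein at 1.39 to 3.87 CPM in the mutant and 0.266 to 0.849 CPM in wild type (2.06), and zgc:110091, the gene of the Hsp70 nuclear carrier hikeshi (0.42).

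By gene order in the RefSeq annotation of the GRCz12tu assembly, 6 of 96 members share chromosome 7 with tpcn2, the nearest being cct7 and hspa12b at 57 and 58 genes away. Of these 6, hspa12b was higher and pfdn2, at 1028 genes away, lower in the mutant. The others, cct7, dnaja2, dnajb6b and dnajc3b, did not pass. Of all tested genes 42.2% passed, and a part of linkage to tpcn2 was not tested.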

How the data were processed

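RNA-seq libraries from 5 tpcn2 mutant and 5 wild-type samples were compared. The authors deposited raw counts for 14650 gene symbols, 522 of them without a read in any library. The submitters' processing notes list cutadapt 3.4, STAR 2.7 and DESeq2 1.30.0 as tools and danRer10 and mm10 as builds, with no role for any. How reads were counted, by which annotation and whether by strand, is not given in the sources used here, so antisense reads cannot be separated from those of the gene they overlap. A second deposited table holds the authors' log2 fold changes and adjusted p-values, named as such per the file headers, with the direction taken from the sign that tpcn2 has there. They served only the comparison of calls.

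Genes kept by filterByExpr were scaled by TMM and tested with edgeR 4.0.16 (quasi-likelihood, R 4.3.3). The model held genotype only, with Benjamini-Hochberg adjustment over all 11871 tested genes and a threshold of 0.05. CPM values are TMM-scaled, and 3 counts correspond to 0.134 to 0.167 CPM. A standard error (SE) is that of the difference between the group means of log2 CPM (prior count 2), from the spread of 5 libraries a group. Levels of different genes were not compared, since no transcript lengths were used here. Related genes were compared by their log2 CPM ratio within a library, with an exact two-sided permutation test (scipy 1.17.1, Python 3.11.15). The fits were also run on simulated counts, with an outcome not given here. In those counts no library was set apart and far fewer genes differed than pass here. That run therefore does not test the fits in the setting of these data.

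The members, the role groups and the other lists were chosen with earlier results of these data known. Named were, in each role group, the gene with the most reads and up to 3 genes past the threshold in each direction by smallest p. Over all members the 5 largest and 5 smallest log2 fold changes past it were named, then the 5 highest and 5 lowest ratios of wild-type replicate 1 among genes of at least 5 CPM, and up to 5 genes in each direction of the other chaperone network. Other members are given as values of their group. Alternatives were RLE factors, library size alone, DESeq2 1.42.0, limma-voom (limma 3.58.1), other filters on low counts, the replicate number as a block, a prior count of 0.5, a fold of 2, and leaving out each library. Leaving out wild-type replicate 1 and mutant replicate 4 together was added after seeing the data.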

Additional observations from a re-analysis of the deposited data

Results flagged for a closer look

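Among named members, 88 groups of 5 libraries were checked for a library far from the others, and 10 had one; chance gives about 1 in 20. For 5 of the genes, hsp70.1, hsp90aa1.2, hsp90b1, hspa5 and dnajb1b, this follows from the choice of genes, since they were named for their high ratio in wild-type replicate 1, and the count of 10 is therefore no sign of an excess. That library was high for hsp70.1 (57.0 CPM, the other wild-type libraries at 8.06 to 13.55), hsp90aa1.2 (152.2 CPM, others 19.64 to 39.31), hsp90b1 (114.2 CPM, others 37.49 to 51.26), hspa5 (884.8 CPM, others 325.2 to 397.1) and dnajb1b (177.5 CPM, others 83.76 to 103.1). For tcp11l1 it was high by a smaller amount (20.26 CPM, others 17.17 to 17.82).

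In the remaining flagged groups the fold was smaller than for the genes named for their high ratio in wild-type replicate 1. The gap to the nearest library, as a share of the range of the 5 libraries, was similar. It was 0.719 to 0.875 here and 0.79 to 0.888 in the groups above. In the mutant, dnaja2 was low in replicate 5 (238.7 CPM, others 274.3 to 284.3) and pfdn2 high in replicate 1 (213.0 CPM, others 188.7 to 193.2). In wild type, dnajc8 was low in replicate 2 (65.46 CPM, others 74.63 to 78.21) and ptges3a low in replicate 4 (147.1 CPM, others 153.9 to 154.9).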

How the results depend on the processing

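No value past the threshold changed sign under any alternative. Some named members that did not pass changed sign. hsp70.1 and hsp90aa1.2 were at -0.034 and -0.19 without mutant replicate 4. With single libraries left out, hspa5 ran from -0.178 to 0.2945, hsp90b1 from -0.003 to 0.5206 and dnaja2 from -0.0875 to 0.0023. The count of members higher in the mutant (15) was 23 without wild-type replicate 1 and mutant replicate 4, and 12 to 26 with single libraries left out. Hsp90 genes lower (4) numbered 2 in limma-voom. Hsp70 genes higher (2) numbered 4 and J-domain genes higher (5) numbered 9 without both libraries, where 20.0% of all tested genes were higher. Over single libraries left out, these numbered 2 to 5 and 3 to 9. With single libraries left out, cytosolic chaperonin genes higher (0) numbered 0 to 1 and Bag genes higher (1) numbered 1 to 2. The 1 mitochondrial chaperonin gene that passed as higher in DESeq2, limma-voom, the mean CPM filter of 1, the replicate block and without both libraries was hspd1 (adjusted p = 0.0467, 0.0469, 0.0474, 0.0190 and 0.0320), with a range of 0 to 1 over single libraries. Of the genes kept outside the role groups, those higher (1) numbered 0 without both libraries and 0 to 1 over single libraries. Those lower (1) numbered 0 without both libraries, 0 with the replicate block and 0 to 1 over single libraries. Pairs past the threshold (3) numbered 0 to 5 over single libraries and 0 with the replicate block, where the smallest possible p is 0.0625. As stated above, a count of 0 over single libraries does not show that a difference was lost. At a fold of 2, 5 members were higher and 2 lower in wild-type replicate 1, where 10 and 4 were at 1.5-fold. The shares of all tested genes were 3.82% and 7.18% at 1.5-fold. They are not given here at 2-fold, so the counts at 2-fold cannot be set against all genes. For these counts the cause was not tested, beyond fewer libraries or a stricter fold.

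Single named genes gave 935 unchanged calls, 19 gained and 18 lost over all alternatives. The samples were treated as unpaired, since the labels do not say what a replicate number marks. Same-number correlations were -0.062 to 0.075, and 2 of 5 mutant libraries correlated best with their own number. With so few libraries these values cannot decide whether the numbers pair the samples. With the replicate number as a block, 16 members were higher and 21 lower. The share of all tested genes in that fit is not given here, so these counts cannot be set against it. All-gene counts were 2146 to 2611 higher and 2317 to 2701 lower with single libraries left out. Levels per coding length were not run, since no coding lengths were used here. The widest errors (SE of log2) were those of ahsa1a (1.19), hsp90aa1.2 (0.602) and hsp70.1 (0.561), and 5 members were too low to test.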

Other observations

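Some chaperones outside the naming stems were also high in wild-type replicate 1 and mutant replicate 4, and those given here were picked after their values were seen. Of the 46 tested genes of the other chaperone network, 3 were at least 1.5-fold higher in wild-type replicate 1 and 2 lower. The shares of all tested genes were 3.82% and 7.18%. In mutant replicate 4, 2 were higher and 0 lower, against 2.37% and 2.95% of all tested genes. serpinh1b, which encodes the collagen chaperone Hsp47, was 4.805-fold higher in wild-type replicate 1 than in the other wild-type libraries and 2.03-fold higher in mutant replicate 4 than in the other mutant libraries. Its log2 fold change, mutant over wild type, was 0.90 with all libraries (edgeR adjusted p = 0.105). It was 1.71 without wild-type replicate 1 (edgeR adjusted p = 1.28e-05). Dropping its highest wild-type library raises that value by construction, so this is no separate evidence of a genotype difference. pdia4, a disulfide isomerase of the endoplasmic reticulum, was 2.31-fold higher in the wild-type library and 1.58-fold higher in the mutant library. chordc1a, an Hsp90 partner, was 1.85-fold and 1.72-fold higher in the same libraries.

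Notochord markers, among which serpinh1b is not counted, had summed levels of 740.4 to 804 CPM in the mutant, against 499 to 666 CPM in wild type, and 4 of 5 were higher in the mutant with 1 lower, where 20.6% and 21.6% of all tested genes were. Without mutant replicate 4, 2 were higher.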
